A study of Mus musculus with 23 samples.

Results

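The comparison concerned ERF in mouse embryonic stem cells that had lost RAS and had been moved for 48 hours into FA, a culture medium in which FGF2 and Activin A turn naive cells into epiblast-like cells. It set the 3 libraries labelled ERF KO against the 3 libraries labelled ERF WT, both with RAS deleted and both in FA, which makes 6 of the 23 libraries of the series. Members were taken by their labels for genotype, treatment and medium. ERF is a repressor of the ETS family that binds enhancers and promoters in the nucleus and is phosphorylated and exported when RAS activates the kinase ERK. FGF signals through RAS and ERK are known to be needed for embryonic stem cells to leave the naive state, pass through a formative stage and become primed for lineage choice. The design thus asks what the ERF label changes in that passage when RAS itself is missing.

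Both groups came from the Raslox/lox background, were H-Ras-/- and N-Ras-/- and carried Ubiq-CreERT2, a Cre recombinase under a ubiquitous promoter that 4-hydroxytamoxifen activates. Both had received 4-hydroxytamoxifen for 6 days, so that its own effect and that of RAS deletion cannot be told apart, and both had been plated on fibronectin in N2B27 medium with KOSR, FGF2 and Activin A. Only the ERF label (KO or WT) differed. How many clones stand behind each genotype is not given in the sources used here, nor whether replicates were separate cultures. P-values therefore measure only the spread between libraries within groups, which the main fit estimated over all 23 libraries. Reference groups, named only beside results, were ERF WT with RAS present in FA (n = 2), ERF WT with RAS deleted in 2i/LIF, a medium that holds cells in the naive state (n = 3), the ERF KO groups with RAS present in FA and with RAS deleted in 2i/LIF (n = 3 each), and both ERF WT and ERF KO with RAS present in 2i/LIF (n = 3 each).

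Total estimated counts in the 6 libraries ran from 22327291 to 29082007, mitochondrial transcripts took 2.09% to 3.95% of them, and a single noncoding transcript, Gm26917, took 17.6% to 22.5%. On the first principal component of all 23 libraries, which held 52.7% of the variance, the 3 libraries labelled ERF KO lay close together, between 62 and 64.9. The ERF WT libraries were spread over -2.42, 12.7 and 22 for replicates 1, 2 and 3, with replicate 1 nearest to the 2i/LIF libraries. Replicate 1 of the ERF WT line also stood apart in another way. Its chromosome 8 genes were raised in all 4 ERF WT groups, by a median of 0.14 to 0.22 on the log2 scale over the mean of its own group, against -0.14 to 0.03 in the other 19 libraries. Results are therefore given without that library where it decides a call or a size.

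The targeted gene did not check the labels. Erf stood at 49.3, 64.5 and 67.9 CPM (counts scaled to the size of the library) in the libraries labelled ERF KO and at 74.4, 66.8 and 67.9 CPM with ERF WT, and the ranges overlapped. Its log2 difference was -0.20 ± 0.13 (SE; edgeR quasi-likelihood test, adjusted p = 0.23). Per length the groups separated, with deposited TPM values of 18.1, 20.3 and 21.3 under the KO label and of 25.6, 28.7 and 29.7 in ERF WT, and with the authors' effective lengths as an offset the log2 difference was -0.42 (adjusted p = 0.0032), still short of 2-fold. In 2i/LIF Erf was instead higher under the KO label, with means of 152 against 87.8 CPM where RAS was deleted. Where RAS was present they were 116 against 77.6 CPM. These log2 differences were 0.79 and 0.58 (edgeR adjusted p = 6.9e-05 and 0.0022), under 2-fold. The ERF by medium interaction of Erf with RAS deleted was -0.99 (edgeR adjusted p = 0.00041). A gene-level count does not show which exons were read. The related ETS repressors Etv3 and Etv6 did not pass the call either, at -0.23 and 0.37 on the log2 scale. Hras transcripts were at 23.9, 25.9 and 19.3 CPM under the KO label and at 19, 19.9 and 19.1 CPM in ERF WT, a difference of 0.25 that is under 2-fold, although both groups are H-Ras-/- by label. Nras was lower under the KO label in each library, at 27.9, 19.2 and 23.7 against 45.7, 43.4 and 40.3 CPM, but its difference of -0.87 ± 0.55 did not pass (adjusted p = 0.23).

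A gene was called where edgeR's quasi-likelihood test gave a Benjamini-Hochberg adjusted p under 0.05 over all 20372 genes tested and the fitted change was at least 2-fold. By that rule 3385 genes, 16.6% of those tested, differed between the groups, 1657 of them (8.13%) higher and 1728 (8.48%) lower in the libraries labelled ERF KO. In 3260 of the called genes the ranges of the replicates did not overlap, as was so for 51.2% of all genes tested. The adjusted p alone passed for 42.8% of the genes. The median change over all genes was 0.01 on the log2 scale. Leaving out ERF WT replicate 1 gave 3077 calls, and 2831 of the 3385 (83.6%) were called in the same direction without it.

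**Figure D1:**
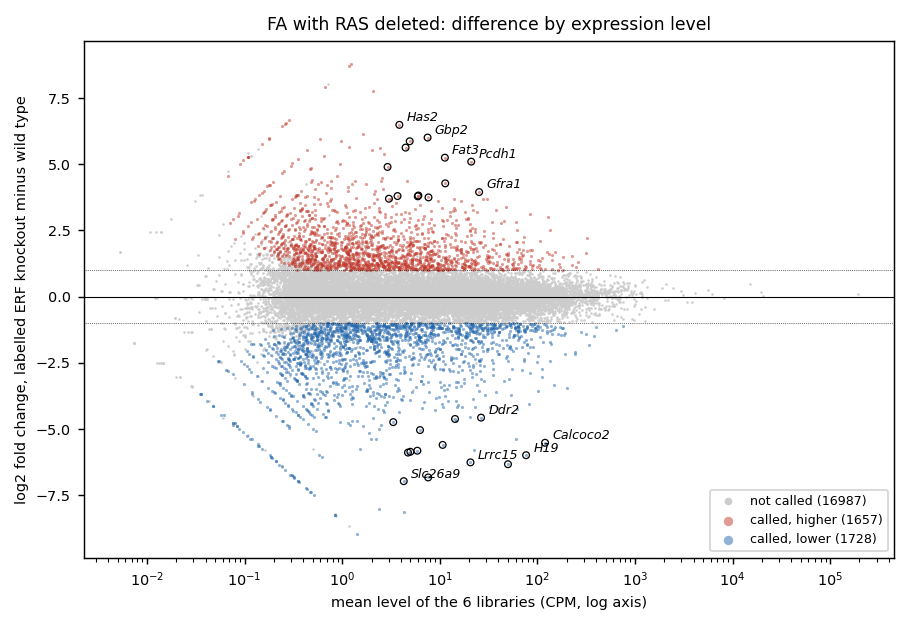
Fitted log2 fold change (vertical axis, libraries labelled ERF KO minus ERF WT, FA with RAS deleted) against the mean level of the 6 libraries in CPM (horizontal log axis) for each gene tested; red and blue points are the 1657 higher and 1728 lower calls, grey points are not called, dotted lines mark 2-fold, and circles mark the largest rises and falls named in the text. Called genes lie on both sides at all but the highest levels.

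Naive pluripotency genes fell together. These factors hold embryonic stem cells in a state like the preimplantation epiblast and are normally shut down in FA. Of its 20 members, all tested, 18 fell and none rose in the libraries labelled ERF KO, with a median of -2.53 on the log2 scale, against 8.48% of all genes called lower and a median of 0.01. Nanog, a core naive factor, read 170, 175 and 171 CPM under the KO label and 588, 453 and 331 CPM in ERF WT, a fall of 1.41 ± 0.15 (log2, SE; edgeR adjusted p = 2.1e-07). The 3 KO libraries were nearly equal and lay below every ERF WT library, and within ERF WT replicate 1 was the highest. Esrrb, an orphan nuclear receptor that sustains self-renewal, stood at 30.7, 26.9 and 30.2 against 221, 185 and 173 CPM (log2 -2.72 ± 0.14, adjusted p = 3.7e-12). Tfcp2l1, a target of LIF signalling, gave 23.8, 22.6 and 27 against 252, 189 and 157 CPM (log2 -3.03 ± 0.16, adjusted p = 1.7e-11). Neither gene's groups overlapped. 

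Among the Kruppel-like factors of the same list, Klf4 and Klf2 fell and Klf5 did not pass. Klf4 read 4.89, 3.27 and 5.51 CPM under the KO label and 46.4, 35.1 and 32.6 CPM in ERF WT, a log2 change of -3.05 ± 0.14 (adjusted p = 2.8e-13). Klf2 lies on chromosome 8 and its ERF WT replicate 1 was the highest library, at 220 CPM against 102 and 79.9 CPM, with 44.8, 28.7 and 32.7 CPM under the KO label (log2 -1.92 ± 0.33, adjusted p = 0.00018). Klf5 was lower by 0.87 on the log2 scale, under 2-fold, although the groups did not overlap (32.8, 30.5 and 37.6 against 45.4, 64.6 and 74 CPM), and it passed without ERF WT replicate 1 (-1.04). The largest falls in the list were those of Prdm14, which represses FGF receptor signalling and DNA methyltransferase genes in naive cells, and of Tbx3. Prdm14 was at 1.19, 0.612 and 1.53 against 35.8, 24.8 and 22.1 CPM (log2 -4.62 ± 0.23, adjusted p = 3.1e-12), and Tbx3 at 7.27, 5.84 and 5.30 against 180, 95.5 and 78.3 CPM (log2 -4.25 ± 0.29, adjusted p = 3.7e-09). Zfp42 (Rex1, a classic naive marker), Dppa3 (Stella), Tcl1, Nr5a2, Nr0b1, Pecam1, Tdh, Dppa5a, Fgf4, Zfp57 and Sox15 had log2 changes between -1.14 (Fgf4) and -3.96 (Tcl1). Gbx2, the remaining member, was higher under the KO label by 0.99, at the edge of the 2-fold rule, and by 1.35 without ERF WT replicate 3.

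For scale, in ERF WT cells with RAS present the FA means were 96.8 CPM for Nanog, 27.1 for Esrrb, 3.46 for Klf4 and 31.4 for Tfcp2l1. In ERF WT cells with RAS deleted in 2i/LIF they were 558, 401, 229 and 1179 CPM in the same order. For these 4 genes the RAS-deleted ERF WT libraries in FA thus lay between those means except for Nanog in replicate 1, while the libraries labelled ERF KO lay near the FA mean of the RAS-present line for Esrrb, Klf4 and Tfcp2l1 and above it for Nanog.

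**Figure D2:**
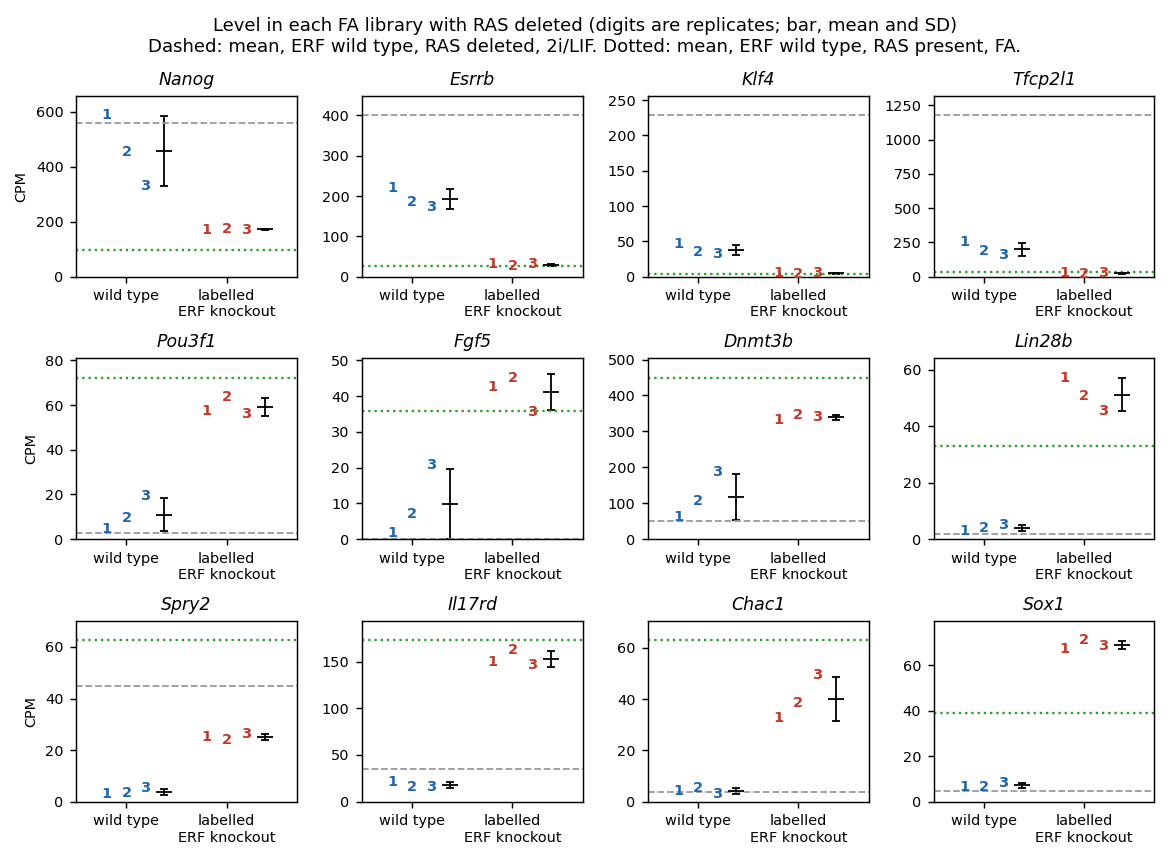
Level in CPM (vertical axes from 0, each gene on its own scale) of 12 genes in each of the 6 libraries; digits are replicate numbers, blue for ERF WT and red for libraries labelled ERF KO, black marks the mean ± SD (n = 3), the dashed line the mean of ERF WT with RAS deleted in 2i/LIF and the dotted line the mean of ERF WT with RAS present in FA. The groups do not overlap in any of the 12 panels.

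Some formative and primed genes, which are known to rise as cells leave the naive state, rose. Of 18 members, all tested, 7 rose, 1 fell and 10 were not called, against 8.13% and 8.48% of all genes, with a median of 0.82 on the log2 scale. Pou3f1 (Oct6), a transcription factor of the formative epiblast, was at 57.3, 63.8 and 56.1 CPM under the KO label and at 4.38, 9.44 and 19.2 CPM in ERF WT (log2 2.41 ± 0.34, adjusted p = 2.7e-05). Fgf5, a ligand that marks the postimplantation epiblast, was at 42.6, 45.2 and 35.5 against 1.71, 7.13 and 20.6 CPM (log2 2.05 ± 0.48, adjusted p = 0.0023). In both genes the ERF WT libraries were far apart, lowest in replicate 1 and highest in replicate 3. Without ERF WT replicate 3 the change of Pou3f1 became 3.09 and that of Fgf5 3.20, while a fit on the 6 libraries alone left Fgf5 above the threshold (adjusted p = 0.067). Dnmt3b, a de novo DNA methyltransferase, gave 332, 346 and 340 against 62, 105 and 187 CPM (log2 1.52 ± 0.28, adjusted p = 0.00035).

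The other risers were the SoxB1 factor Sox3 (1.40), the epithelial regulator Grhl2 (1.08), Sall2 (1.43) and Hes6 (1.39), each on the log2 scale. Foxd3, a repressor that helps cells out of the naive state, fell by 1.37. Otx2, which directs enhancer use in formative cells, was not higher: it read 29.5, 31.7 and 37.6 CPM under the KO label against 34.4, 58.3 and 63.6 CPM in ERF WT, with overlapping ranges (log2 -0.66 ± 0.17, adjusted p = 0.0026, under 2-fold). Lef1 showed the same spread in ERF WT as Fgf5, at 8.33, 21.4 and 46.8 CPM against 54.3, 48.8 and 54.4 CPM, and its change of 1.03 did not pass (adjusted p = 0.061), although it did without ERF WT replicate 3 (1.82), with no filter on low counts and with the effective length offset. Utf1 (0.37) and Tcf15 (0.87) were under 2-fold. Of the 9 DNA methylation enzymes only Dnmt3b was called, which is near the 8.13% of all genes called higher and no result about the list. Dnmt3a stood at 183, 202 and 210 against 169, 204 and 210 CPM, a difference of 0.03 ± 0.11, and its cofactor Dnmt3l differed by 0.77 (adjusted p = 0.015), or by 1.11 without ERF WT replicate 3.

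Genes that serve pluripotent cells of both states were mixed. Of 10 members 3 rose, against 8.13% of all genes, 1 fell, near the 8.48% of all genes, and the median was 0.15. Sox2 fell from 264, 271 and 237 CPM in ERF WT to 87.3, 94.9 and 104 CPM under the KO label (log2 -1.43 ± 0.11, adjusted p = 8.4e-10). Pou5f1 (Oct4) was lower by 0.63, under 2-fold, and stayed between 272 and 514 CPM in all 6 libraries. The RNA-binding proteins Lin28a and Lin28b, which block maturation of the let-7 microRNAs, both rose. Lin28b was at 57.3, 50.7 and 45.5 against 3.02, 3.81 and 4.92 CPM (log2 3.69 ± 0.17, adjusted p = 2.7e-13), and Lin28a at 459, 507 and 463 against 71.4, 149 and 232 CPM (log2 1.66 ± 0.30, adjusted p = 0.00033). They were the 2 called members of the 10 in the Lin28 and let-7 list, against 8.13% of all genes called higher. Tdgf1 (Cripto), the Nodal coreceptor, rose by 1.09, or by 0.97 without ERF WT replicate 1, which is under 2-fold.

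**Figure D3:**
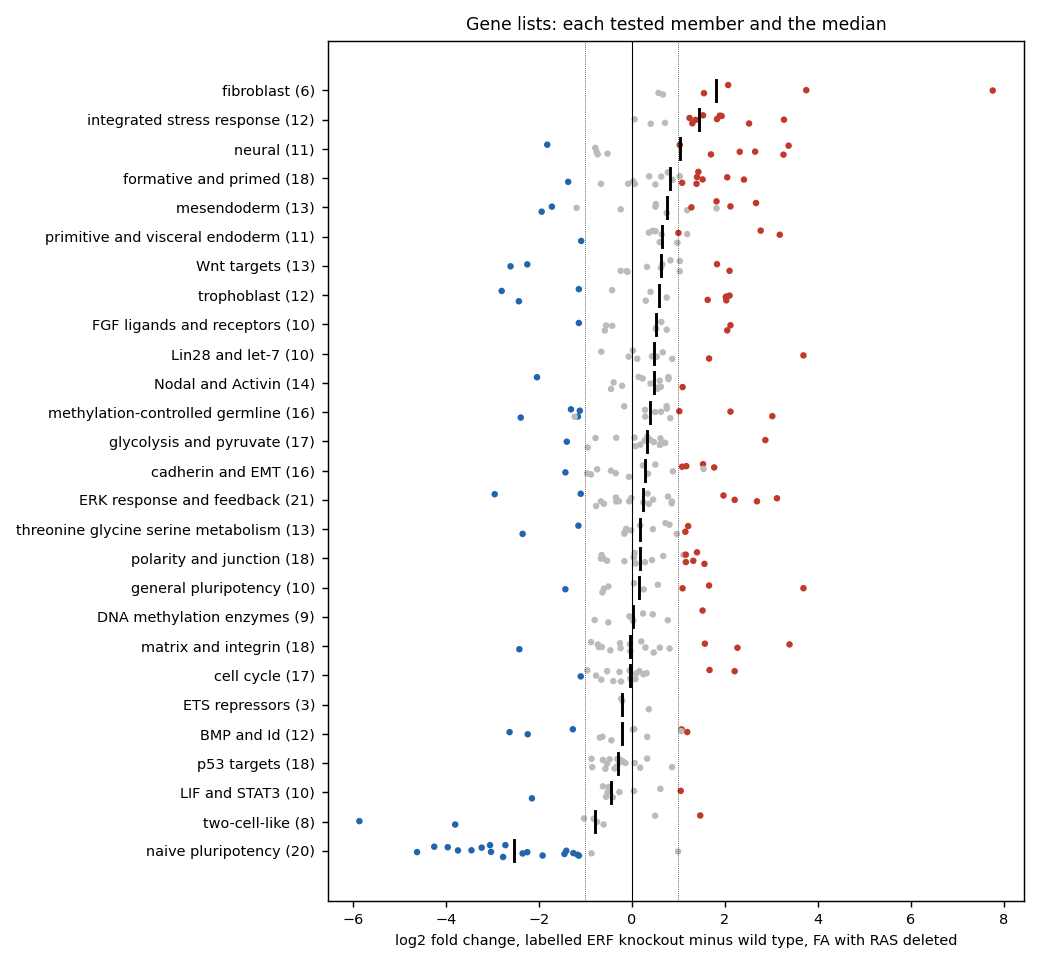
Fitted log2 fold change (horizontal axis, libraries labelled ERF KO minus ERF WT, FA with RAS deleted) of each tested member of 23 gene lists and 4 cell type marker lists, with the number tested in parentheses; red and blue are called higher and lower, grey not called, black bars are medians and dotted lines mark 2-fold. The naive list lies to the left, and the integrated stress response list is the one of over 10 members with no member below 0.

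Genes of the integrated stress response moved in the opposite direction. In this pathway kinases that sense amino acid shortage, unfolded protein or other stress raise translation of ATF4, which with C/EBP partners turns on the genes listed. Of the 12 members, all tested, 9 rose, none fell and all 12 had a positive difference, with a median of 1.45 on the log2 scale against 8.13% of all genes called higher. Chac1, a glutathione-degrading enzyme induced by ATF4, was at 32.5, 38.4 and 49.2 CPM under the KO label and at 4.21, 5.31 and 2.98 CPM in ERF WT (log2 3.27 ± 0.28, adjusted p = 3.5e-08). Trib3, a pseudokinase that feeds back on the pathway, was at 26.7, 29.1 and 47.4 against 6.62, 6.97 and 4.46 CPM (log2 2.52 ± 0.31, adjusted p = 5.7e-06). Within the KO label replicate 3 was the highest library for both. In ERF WT cells with RAS present in FA (n = 2) the means were 63 CPM for Chac1 and 60.1 CPM for Trib3. These lay above the KO-label means of 40.1 and 34.4 CPM, though the libraries were far apart (45.2 and 80.9, 34.8 and 85.4). With RAS deleted in 2i/LIF, ERF WT means were 3.95 CPM for Chac1 and 18.1 CPM for Trib3.

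Vldlr, a lipoprotein receptor and ATF4 target, rose by 1.93 ± 0.24, and Ddit3 (CHOP), a proapoptotic transcription factor of the pathway, by 1.89 ± 0.39. Nupr1 (1.83), Atf3 (1.53), Ddit4 (1.37), Cebpb (1.3) and Atf5 (1.24) rose as well. The RAS-present ERF WT means in FA lay above those of the KO label for Ddit3, Nupr1, Ddit4, Cebpb and Atf5. They lay below for Vldlr (14.1 against 15.6 CPM) and Atf3 (5.68 against 6.47 CPM). Atf5 rested on 1 library: it was at 22.3, 26.4 and 48.2 CPM under the KO label, and without replicate 3 of that group the change was 0.84, under 2-fold. Atf4 itself was at 161, 182 and 198 against 151, 135 and 123 CPM, a difference of 0.41 that is under 2-fold, as were those of Asns (0.71, or 1.04 and called without ERF WT replicate 1) and Sesn2 (0.06). Serine and one-carbon genes, of which ATF4 controls several, were counted in a separate list of 13 with 2 called each way, against 8.13% and 8.48% of all genes, where Mthfd2, a mitochondrial folate enzyme (95.9, 103 and 112 against 46.8, 50.9 and 42.7 CPM, log2 1.15), and Psph, the last enzyme of serine synthesis (1.21), rose, Phgdh did not pass at 0.81 (1.1 and called without ERF WT replicate 1), and Tdh and Amt of threonine and glycine breakdown fell by 2.35 and 1.15, the latter by 0.99 without ERF WT replicate 1.

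**Figure D4:**
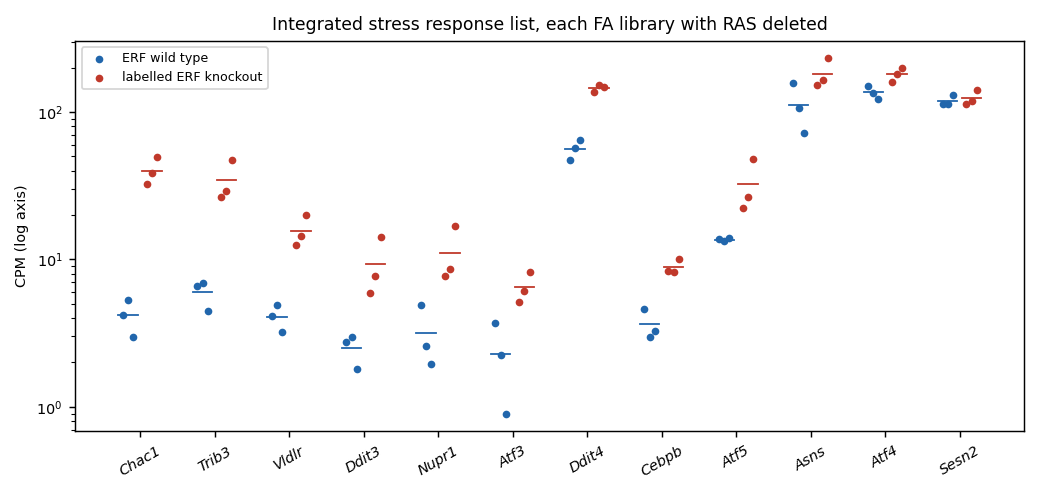
Level in CPM (vertical log axis) of the 12 integrated stress response genes in each of the 6 libraries, ordered by fitted change; blue points are ERF WT, red points are labelled ERF KO, bars are means (n = 3 each). The groups are apart in 10 of the 12 genes and overlap for Asns and Sesn2.

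Promoters of this list are shown because 9 of its 12 members rose and because the composite element of C/EBP and ATF factors is the textbook link between them. The letters TGATGNAA, on either strand, were looked for in the 250 bases before each start in RefSeq's promoter table (GRCm38.p6). This element was chosen after the values were seen. All 12 members had at least 1 window (Vldlr and Atf5 more than one), and a match lay in 5, of which 4 (Atf3, Chac1, Nupr1 and Vldlr) were among the 9 called and 1 was Asns. Of all 32851 windows in the table, 3.45% held a match. Each line gives the match in capitals on the gene's own strand, with 30 bases on each side or up to the start. In the called genes it lies on the opposite strand, and in Asns on the gene's own.
Atf3, chr1:191183406-191183473, minus strand: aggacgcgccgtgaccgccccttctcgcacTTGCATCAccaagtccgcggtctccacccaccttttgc
Chac1, chr2:119351019-119351086, plus strand: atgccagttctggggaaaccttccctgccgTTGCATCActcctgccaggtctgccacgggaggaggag
Nupr1, chr7:126625543-126625610, minus strand: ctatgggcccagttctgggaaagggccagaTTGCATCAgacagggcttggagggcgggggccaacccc
Vldlr, chr19:27216790-27216857, plus strand: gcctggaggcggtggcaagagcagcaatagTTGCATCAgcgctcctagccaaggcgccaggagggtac
Asns, chr6:7693210-7693262, minus strand: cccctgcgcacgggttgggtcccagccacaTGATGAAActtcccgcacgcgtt
The capitals read the same in the 4 called genes, whose flanks differ, and otherwise in Asns. Matches began 110 bases before the start in Atf3 and in Nupr1, 193 in Chac1, 200 in Vldlr and 23 in Asns. Letters in a window are a description and show no binding.

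ERK response genes, which are induced by the pathway and in part feed back on it, included 4 that rose and 2 that fell of the 21 tested, with a median of 0.25. Over all genes 8.13% were called higher and 8.48% lower, so the count of falls is near that of genes at large. Il17rd (Sef), a membrane inhibitor of FGF signalling, rose from 21.1, 15.7 and 15.8 CPM in ERF WT to 149, 162 and 146 CPM under the KO label (log2 3.12 ± 0.10, adjusted p = 6.8e-16). Spry2, a Sprouty inhibitor of RAS activation, was at 25.1, 24 and 26.1 against 2.94, 3.44 and 5.14 CPM (log2 2.69 ± 0.16, adjusted p = 3.3e-11). Spred1, an inhibitor that recruits neurofibromin, was at 44, 47.7 and 46 against 11.3, 12.4 and 11.3 CPM (log2 1.97 ± 0.09, adjusted p = 1.8e-13). These 3 inhibitors showed tight groups far apart. In ERF WT cells with RAS present in FA their means were higher still, at 173, 62.7 and 89.5 CPM in the same order. In ERF WT cells with RAS deleted in 2i/LIF they were 35.5, 44.7 and 25 CPM. Myc was at 13.4, 13.6 and 10.4 against 0.833, 1.7 and 5.32 CPM (log2 2.21 ± 0.38, adjusted p = 0.00013; 3.28 without ERF WT replicate 3). Its mean in ERF WT cells with RAS present in FA was 41 CPM.

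Other members of the same families did not follow. Spred3 fell by 1.10, or by 0.96 without ERF WT replicate 3, and Spry4 was under 1 CPM in all 6 libraries (0.86, not called; 1.28 and called without ERF WT replicate 2). The phosphatase Dusp6, a standard readout of ERK activity, was at 22.5, 22.7 and 25.3 against 12.3, 21.3 and 25.4 CPM, with overlapping groups (log2 0.25 ± 0.20, adjusted p = 0.35), and Dusp4 differed by -0.34 (adjusted p = 0.50). In ERF WT cells with RAS present in FA these averaged 146 CPM for Dusp6, 85.6 for Dusp4 and 31.9 for Spry4. Of the PEA3 family of ETS activators, Etv4 fell from 2.59, 4.82 and 5.64 to 0.515, 0.408 and 0.787 CPM (log2 -2.95 ± 0.30, adjusted p = 1.1e-07), Etv5 was lower by 0.60, under 2-fold, and Etv1 overlapped between the groups. Among FGF ligands and receptors, 10 tested, Fgf5 and Fgf8 rose, against 8.13% of all genes, and Fgf4 fell, near the 8.48% of all genes. Fgf8 was at 37.6, 37.5 and 27.3 against 2.94, 6.2 and 14.2 CPM (log2 2.12 ± 0.36, adjusted p = 0.0001; 2.89 without ERF WT replicate 3), and Fgfr2 overlapped, at -0.58.

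Activin A in the medium acts through the Nodal pathway, of which 14 genes were tested, 1 rose and 1 fell, with a median of 0.48, which is near the 8.13% and 8.48% of all genes and no result about the pathway. Pcsk6, a protease that matures Nodal, fell from 103, 87.5 and 79.2 to 20.1, 22.6 and 22.8 CPM (log2 -2.04 ± 0.10, adjusted p = 5.0e-13), and the riser was Tdgf1. The feedback inhibitor Lefty1 was high in both groups, at 926, 1007 and 795 against 514, 591 and 741 CPM, a difference of 0.56 that is under 2-fold, as were those of Lefty2 (0.55), Foxh1 (0.79) and Acvr2b (0.79). Among 13 Wnt targets 2 rose and 2 fell, against 8.13% and 8.48% of all genes. The fallers were Notum, a secreted Wnt inhibitor (7.44, 4.69 and 4.77 against 35.5, 30.8 and 37.7 CPM, log2 -2.61), and Tnfrsf19 (-2.25), whereas the risers, Cdx2 and Rnf43, were under 1 CPM in all 6 libraries (Cdx2 had a log2 change of 2.10, which was 5.75 without ERF WT replicate 3 and lost its call without each of the other libraries) and Axin2 was under 2-fold at 0.63. In the BMP list of 12, Id2, Id4 and Msx2 fell by 1.27, 2.24 and 2.63, each below 8 CPM in every library, and Id1 (1.07) and Bmp4 (1.19) rose at levels below 2 CPM. Without ERF WT replicate 1 these were 0.80 and 0.95 and not called, and Id1 was not called either without ERF WT replicate 2 or without replicate 1 or 2 of the KO label. Of 10 genes of the LIF pathway 1 went each way, near the shares of all genes: Bcl3 fell by 2.15 and Socs3 rose by 1.05, which was under 2-fold without replicate 3 of the KO label and without ERF WT replicate 2 or 3 (0.77 to 0.98) and 1.67 without ERF WT replicate 1. Stat3 was lower by 0.41.

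Neural regulators were 6 called higher and 1 lower of 11 tested, against 8.13% and 8.48% of all genes, with a median of 1.03, which was -0.03 over 13 genes with no filter on low counts. Sox1, the earliest neural plate marker, was at 67.4, 71.2 and 68.4 against 6.66, 6.48 and 8.38 CPM (log2 3.26 ± 0.15, adjusted p = 4.5e-13). Sox11, a factor of neural progenitors, was at 87.1, 89.8 and 87 against 5.78, 9.89 and 9.67 CPM (log2 3.37 ± 0.15, adjusted p = 3.1e-13), and Pax6 at 30.4, 30 and 28.8 against 5.17, 9.16 and 13 CPM (log2 1.7 ± 0.24). Sox1 and Pax6 exceeded their means in ERF WT cells with RAS present in FA, which were 39 and 8.74 CPM, and Sox11 stood near its mean of 74.2 CPM. Zfp521 (2.32), Map2 (1.03) and Zic1 (2.65; 3.83 without ERF WT replicate 1) were below 8 CPM in every library, Map2 being under 2-fold without ERF WT replicate 1 (0.81) or 2 (0.97), and Olig3 fell by 1.82 from under 2 CPM.

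Mesendoderm genes were 4 higher and 2 lower of 13, against 8.13% and 8.48% of all genes, with a median of 0.75, which was 1.22 over 12 genes without ERF WT replicate 3. Apart from Fgf8 the called members were below 5 CPM in every library: Wnt3 (1.82; 2.87 without ERF WT replicate 3), Tbx6 (1.28) and Nkx1-2 (2.67) rose, and Gsc (-1.94) and Evx1 (-1.72) fell. Nkx1-2 was 3.53 without ERF WT replicate 3 and was not called without ERF WT replicate 1 or 2 or replicate 1 of the KO label (2.01 to 2.48). Evx1 was not called without replicate 3 of the KO label (-1.27), nor by DESeq2's Wald test (-1.75, adjusted p = 0.072). Brachyury (T), the defining mesoderm factor, was under 1 CPM in all 6. In the list of germline genes held silent by promoter methylation, 3 rose and 4 fell of 16, against 8.13% and 8.48% of all genes. Dazl, an RNA-binding protein of germ cells, fell from 60, 64.9 and 47.4 to 11.6, 9.59 and 11.7 CPM (log2 -2.39 ± 0.21, adjusted p = 6.0e-08), Rpl10l fell by 1.31, and Stk31 (by 1.16) and Asz1, below 2 CPM, fell too. Mael, of the piRNA machinery, rose from 2.41, 4.05 and 3.24 to 14.9, 11.5 and 15.8 CPM (log2 2.12 ± 0.25), and Tdrd1 (3.02) and Slc25a31 (1.02) rose as well. Asz1 lost its call without replicate 1 of the KO label (-1.02) or ERF WT replicate 1 (-0.93), and with the effective length offset (-0.762). Slc25a31 lost its call without replicate 1 of the KO label (0.83) or ERF WT replicate 1 or 3 (0.98 and 0.97).

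Lists of cell adhesion and of the epithelial to mesenchymal transition (EMT) were read against the 8.13% of all genes called higher and 8.48% called lower. In the list of 16 cadherin and EMT genes 4 rose and 1 fell, the latter near that share, 7 had a negative difference and the median was 0.29. The faller was Ovol2, an epithelial transcription factor, at 0.451, 0.490 and 0.663 against 1.49, 1.5 and 1.33 CPM (log2 -1.43). Epcam, an epithelial adhesion molecule, was at 101, 105 and 121 against 36.4, 31 and 28.8 CPM (log2 1.77 ± 0.18, adjusted p = 2.1e-07). Esrp1, an epithelial splicing factor, rose by 1.17, or by 0.79 without ERF WT replicate 1, and did not pass in a fit on the 6 libraries alone (adjusted p = 0.072), and Zeb2, a repressor of E-cadherin, by 1.53, or by 2.31 without ERF WT replicate 3, and did not pass on the 6 libraries alone either (adjusted p = 0.069). Cdh1 (E-cadherin, on chromosome 8) was at 172, 167 and 173 against 321, 194 and 186 CPM, with replicate 1 again the highest ERF WT library (log2 -0.45, adjusted p = 0.11). Cdh2 (N-cadherin) overlapped. Of 18 polarity and junction genes 5 rose and none fell, with a median of 0.18: the claudins Cldn6 (1.40), Cldn3 (1.32) and Cldn9 (1.16), the polarity protein Crb3 (1.56) and the tricellular junction protein Marveld2 (1.16), all below 10 CPM in each library. Marveld2 was under 2-fold without ERF WT replicate 3 (0.90). Cldn9 was 1.78 without ERF WT replicate 1 and was not called without ERF WT replicate 2 or 3 or replicate 1 or 3 of the KO label (0.88 to 1.18), nor by DESeq2 (adjusted p = 0.073).

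In the matrix and integrin list Lama1 and Lamb1 rose and Nid1 fell, while the related Lama5, Lamc1 and Nid2 were not called. Of its 18 genes 3 rose, 1 fell and the median was -0.04, against 8.13% and 8.48% of all genes. The laminin chains Lama1 and Lamb1, parts of the laminin that lines the epiblast, were at 57.9, 121 and 180 against 25.4, 23.1 and 25.7 CPM (log2 2.27 ± 0.39, adjusted p = 0.00017) and at 168, 229 and 241 against 59.3, 72.1 and 83.3 CPM (log2 1.57 ± 0.23, adjusted p = 2.4e-05). Nid1 (nidogen), which links laminin to collagen, went the other way, at 35.1, 37.3 and 53.7 against 318, 203 and 154 CPM (log2 -2.42 ± 0.20, adjusted p = 1.5e-08). Fn1 (fibronectin) was lower by 0.88, under 2-fold, and the collagen receptor Itga1 rose from under 0.5 CPM to 1.8, 2.45 and 1.78 CPM.

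In a glycolysis and pyruvate list of 17 genes 1 rose and 1 fell, no more than the 8.13% and 8.48% of all genes. Pdk1, the kinase that closes pyruvate dehydrogenase to pyruvate, was at 72.7, 80.2 and 85.1 against 11.4, 10.8 and 10.2 CPM (log2 2.87 ± 0.13, adjusted p = 2.2e-13). Pfkp, a phosphofructokinase, fell from 270, 252 and 192 to 80.8, 74.7 and 114 CPM (log2 -1.40 ± 0.16). Ldha was higher by 0.61, under 2-fold. In the cell cycle list, 17 tested, 2 rose and 1 fell, near those shares. Cdk6 rose (30.3, 29.5 and 27.8 against 9.42, 8.02 and 10.1 CPM, log2 1.67, or 0.73 with the effective length offset), Ccnd3 fell by 1.10 and Mki67 overlapped at 0.08, Myc being the third called. None of 18 p53 targets was called, with a median of -0.29. Differences under 2-fold went both ways, with 14 members negative, among them Cdkn1a (-0.53, adjusted p = 0.029), Mdm2 (-0.57, 1.3e-05) and Plk2 (-0.85, 1.2e-07), and 4 positive, among them Pmaip1 (0.86, 0.00068).

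By the naming rule, the largest rises and falls outside predicted genes were then read. Has2, which makes hyaluronan at the cell surface, was at 7.27, 7.31 and 8.33 CPM under the KO label and at 0.0438, 0 and 0.180 CPM in ERF WT (log2 6.49 ± 0.44, edgeR adjusted p = 5.4e-11; 8.16 without ERF WT replicate 3). Gbp2 and Gbp7, guanylate-binding proteins known as interferon-induced, and Psmb8, a subunit of the immunoproteasome, all rose. Gbp2 was at 18.7, 11.6 and 14 against 0.175, 0.122 and 0.359 CPM (log2 6.01 ± 0.72; 6.6 without ERF WT replicate 3), Gbp7 rose by 4.90 and Psmb8 by 5.63. In ERF WT cells with RAS present in FA their means were 8.27 CPM for Gbp2, 2.06 for Gbp7 and 3.68 for Psmb8.

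St6gal2 (5.87), the atypical cadherin Fat3 (5.25), the protocadherin Pcdh1 (5.10), Tagln (4.28; 4.95 without ERF WT replicate 3), the GDNF coreceptor Gfra1 (3.95), the scavenging chemokine receptor Ackr4 (3.82; 4.41 without ERF WT replicate 3), Flt1 (3.8), Col6a5 (3.79), the imprinted gene Phlda2 (3.75) and Nos3 (3.70) were the other rises. Of these Pcdh1 and Gfra1 reached the highest levels. Pcdh1 was at 40.1, 45.9 and 36.6 against 1.01, 0.608 and 1.87 CPM, and Gfra1 at 46.4, 48.6 and 47.8 against 2.72, 2.84 and 3.63 CPM. Neither gene's groups came near each other.

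Among the falls, Calcoco2 (an autophagy receptor) had the highest starting level. It was at 326, 190 and 188 CPM in ERF WT and at 6.82, 4.33 and 3.98 CPM under the KO label (log2 -5.52 ± 0.30, adjusted p = 2.6e-10). Aqp3, a water and glycerol channel, went from 184, 63.8 and 48.8 to 1.64, 1.18 and 0.746 CPM (log2 -6.33 ± 0.49; -5.52 without ERF WT replicate 1). H19, the imprinted noncoding RNA, went from 69.3, 155 and 229 to 1.64, 3.67 and 1.95 CPM (log2 -5.99 ± 0.46, adjusted p = 2.8e-08). H19 was lowest in ERF WT replicate 1, as were Slc26a9, Lrrc15 and Hesx1.

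Lrrc15, which was at 36.2, 38.1 and 48.1 CPM in ERF WT, stood at 0.579, 0.490 and 0.497 CPM under the KO label. Slc26a9, an anion transporter, fell by 6.97 from under 10 CPM. Ly6a (Sca-1) fell by 6.83 and Pramel6 by 5.86, and without ERF WT replicate 1, their highest library, by 5.97 and 4.67. Aspa (-5.89), Pramef17 (-5.82), Fat2 (-5.60), the glutamate transporter Slc1a1 (-5.04), the homeobox gene Hesx1 (-4.74), Prdm14 and the collagen receptor Ddr2 (-4.57) were the other falls.

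Marker lists of other cell types that such cultures can hold were summed in each library, and their calls are to be read against the 8.13% of all genes called higher and 8.48% called lower. Of 11 primitive and visceral endoderm genes tested, Cubn, Amn and Gata6 were called higher and Hnf4a lower (a single fall, near that share), with summed levels of 35.3 to 47.2 CPM under the KO label and 22.1 to 26.2 CPM in ERF WT. The defining factor Gata4 overlapped between the groups, and Gata6 was at 2-fold, losing its call in 9 of the 16 alternative settings. Hnf4a (-1.09) was not called without replicate 1 of the KO label (-0.88) or ERF WT replicate 1 (-0.92). Nor was Hnf4a called with the effective length offset (-0.775). Amn (2.77) was 3.74 without ERF WT replicate 1. Cubn was at 3.77, 4 and 5.43 against 0.526, 0.486 and 0.431 CPM, while ERF WT cells with RAS present in FA averaged 248 CPM. Of 12 trophoblast genes 5 rose and 3 fell, with sums of 56.5 to 62.9 against 86.9 to 88.5 CPM. Here Tfap2c, also expressed in naive cells, fell from 51.1, 48.3 and 36.9 to 6.15, 7.22 and 6.22 CPM and Gata3 from 18.3, 18.5 and 17.5 to 3.70, 2.82 and 3.52 CPM, whereas the keratins Krt8 (2.02; 2.73 without ERF WT replicate 3) and Krt18 (1.63) rose. Genes of the 2-cell-like state, 8 tested, summed to 71.3 to 173 against 96.7 to 409 CPM, 1 rising, which is near the share of genes at large, and 2 falling.

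Fibroblast genes, 6 tested, were all positive and 4 were called higher, against 8.13% of all genes, but their sum was 12.2 to 17.6 CPM under the KO label and 4.42 to 6.35 CPM in ERF WT. Acta2, smooth muscle actin, was at 1.06, 4 and 7.34 CPM against 1 count in the whole ERF WT group, a ratio of 291 with an exact 95% counting interval of 51.9 to 11533 that covers counting error only. That count lay in ERF WT replicate 3. The fitted log2 change, which depends on the prior count and is no bound, was 7.76, and was 9.49 without that library and 7.05 without replicate 3 of the KO label. Tagln, another smooth muscle gene, was also highest in replicate 3 of the KO label. The part of these cell types in the other results was not tested. In bulk RNA, fewer cells of a type and less RNA per cell cannot be told apart.

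Whether the ERF label acted differently with RAS present was tested as an interaction in FA. It was called for 2794 genes, 13.7% of those tested, with a positive sign for 6.29% and a negative one for 7.42%. With RAS present the ERF label difference was called for 480 genes (2.36%), 1.58% higher and 0.78% lower. For the naive list the interaction was called for 17 of 20 genes, 16 of them negative, and with RAS present the list's median ERF difference was -0.22 with 1 gene called lower. For the formative and primed list it was called positive for 10 of 18 and negative for none, with a median ERF difference of -0.51 where RAS was present. For the integrated stress response it was called positive for 8 of 12, and for ERK response genes positive for 5 and negative for 2 of 21. Il17rd gave an interaction of 3.50 (adjusted p = 1.3e-13) and Spry2 one of 3.36 (adjusted p = 7.2e-10). H19 and Tagln were called in the same direction in both backgrounds, at -4.51 and 3.56 with RAS present, and their interactions were not called (adjusted p = 0.097 and 0.70). Foxd3 fell in both, by 1.49 with RAS present (interaction 0.12, adjusted p = 0.80). Libraries of one replicate number were treated as independent in this test, and without all ERF WT libraries numbered 1 the interaction was called for 2427 genes.

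**Figure D5:**
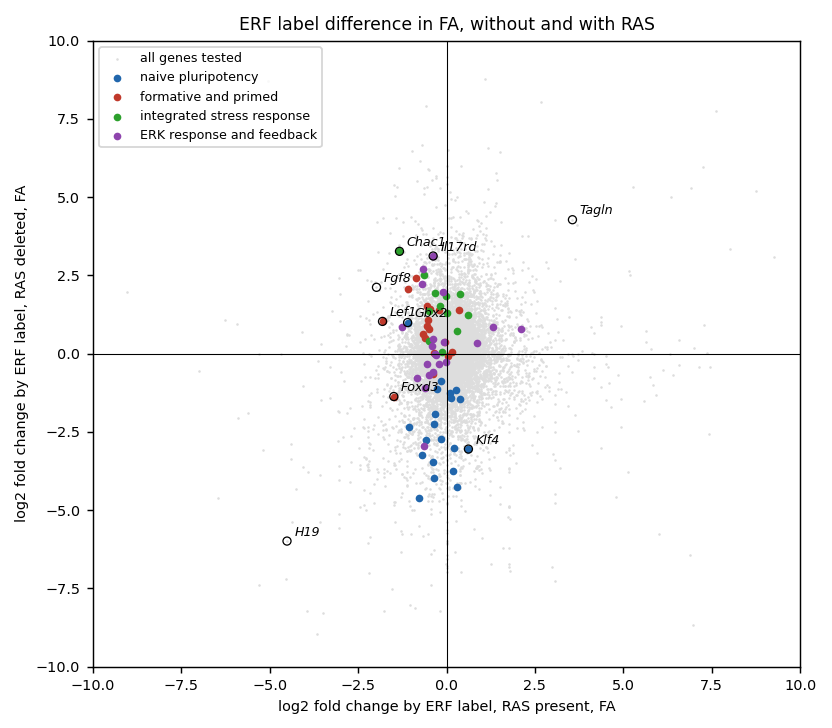
Fitted log2 difference by ERF label in FA with RAS deleted (vertical axis) against that with RAS present (horizontal axis, same scale), for all genes tested in grey and 4 gene lists in colour; circles mark genes named in the text. Naive genes lie mostly below 0 and stress response genes all above 0 on the vertical axis, with both signs on the horizontal axis, and H19, Tagln and Foxd3 lie off 0 on both axes.

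Across all genes, the 2 ERF comparisons in FA share no library, though they come from the same lines. Of the 1657 genes higher with RAS deleted, 75 were also called higher with RAS present (4.53% of the former, 23.4% of the 321 of the latter) and 25 were called lower. Of the 1728 lower genes, 63 were also lower (3.65%, and 39.6% of 159) and 26 higher. In 2i/LIF with RAS deleted the ERF label difference was called higher for 5.83% and lower for 7.15% of genes (13% in all). Shared with it were 459 of 1657 higher genes (27.7%, and 38.6% of 1188) and 647 of 1728 lower genes (37.4%, and 44.4% of 1456). In 2i/LIF with RAS present it was called higher for 5.2% and lower for 4.52% (9.72% in all), and 416 of the higher genes (25.1%, and 39.2% of 1060) and 499 of the lower genes (28.9%, and 54.2% of 920) were shared. The FA minus 2i/LIF difference of ERF WT cells with RAS present, which also shares no library, was called for 24% of genes, 13.2% higher and 10.8% lower. Of the genes that differed by ERF label, 1084 of the higher genes (65.4%, and 40.3% of 2691) and 943 of the lower genes (54.6%, and 42.9% of 2200) were called in the same direction there, and 39 and 88 in the opposite one.

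The medium was tested in the same way. The ERF by medium interaction with RAS deleted was called for 2308 genes, 11.3% of those tested, positive for 5.59% and negative for 5.74%. It was negative for 16 and positive for 2 of the 20 naive genes and positive for 7 and negative for 1 of the 18 formative and primed genes. Dppa3, one of the positive naive genes, fell further by ERF label in 2i/LIF (-5.20) than in FA (-3.74). Lin28a also differed more in 2i/LIF (3.46) than in FA (interaction -1.80), whereas for Lin28b the FA difference was the larger (interaction 1.17). Pdk1 rose by 3.38 in 2i/LIF and its interaction was not called, and the same was so for Lrrc15, which fell by 5.46 there. Both genes were thus called in the same direction in the naive medium.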

How the data were processed

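RNA was measured in 23 libraries, 6 of them compared here. Per the labels' protocols, total RNA was depleted of ribosomal RNA, made into directional libraries and sequenced as paired 75-base reads. The submitters' processing notes name bcl2fastq 2.20.0, fastp 0.20.0, Salmon and mm10; the quantifier's version and transcript set are not given in the sources used here. Per the file headers, the authors deposited, for each library and gene, estimated counts, TPM and effective lengths, and a table of whole-number counts, which equals the rounded estimated counts (0 cells differed) and was analysed. TPM values from the deposited files were used for Erf only.

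Of 53607 gene rows, 20372 passed edgeR's filter. Libraries were scaled by TMM, and edgeR 4.0.16 (R 4.3.3) fitted a robust quasi-likelihood model over all 8 groups, so that 1 estimate of the spread was shared; CPM are on the TMM scale. On simulated counts of 20017 genes with 200 changed in this comparison, 93% of 2.5-fold and 94% of 4-fold changes were called, and 3 unchanged genes. The simulated replicates were drawn independently with the fitted spread. They lack the graded order of the ERF WT replicates, so these figures need not hold for the real libraries. A gene was called at adjusted p under 0.05 and at least 2-fold. Alternatives were DESeq2 1.42.0, its size factors, other filters, effective length offsets, fewer groups, a replicate block and leaving out each library. Replicates differed by more than sampling noise (chi-square per degree of freedom of 5.26 to 44.9).

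The members and lists were chosen with earlier results of these data known. Named genes were Erf, Hras and Nras, 2 to 6 members of each list, called members first, and the 15 largest rises and falls among calls with replicate ranges apart and a mean of at least 5 CPM in the higher group, predicted genes and pseudogenes passed over; list members named beyond 6 were chosen after their values were seen. One further targeted gene and 2 of the largest changes are not reported here. Only 63.1% of tested genes (65.5% of the higher and 64.5% of the lower calls) had a promoter window by symbol, so shares of the planned motifs CCGGAAGT and TGACTCA among called genes are void.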

Additional observations from a re-analysis of the deposited data

Results flagged for a closer look

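The ERF label difference itself differed between backgrounds: 2794 genes were called for the ERF by RAS interaction in FA and 2308 for the ERF by medium interaction with RAS deleted. Of the genes named, 4 were called in opposite directions in FA with and without RAS. Chac1 had an interaction of 4.60 on the log2 scale, with a difference by ERF label of 3.27 where RAS was deleted and of -1.33 where it was present. Cubn had one of 4.47 (3.18 and -1.29) and Fgf8 one of 4.10 (2.12 and -1.98). Asz1 went the other way, with -2.34 (-1.12 and 1.22). With RAS deleted, 3 named genes were called higher in FA and lower in 2i/LIF: Cdx2, with an ERF by medium interaction of 6.14 (2.10 and -4.03), Sall2, with one of 2.49 (1.43 and -1.06), and Grhl2, with one of 2.30 (1.08 and -1.23). In 3 others the difference was called in both media, negative in FA and positive in 2i/LIF: Hnf4a with -3.00 (-1.09 and 1.91), Ovol2 with -2.57 (-1.43 and 1.14) and Zfp57 with -2.24 (-1.17 and 1.08). Cdx2, Asz1 and Hnf4a lost their FA call with the effective length offset and when some single libraries were left out.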

How the results depend on the processing

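The count of 3385 calls stayed between 2706 and 3836 over the settings that kept the 2-fold minimum, among them 3195 by DESeq2's Wald test, 3202 with effective length offsets and 3244 without chromosome 8 genes. Without the minimum, 8725 genes passed the adjusted p alone (4395 higher, 4330 lower), as did 5704 for the ERF by RAS interaction and 5375 for the ERF by medium interaction. With single libraries left out there were 3077 to 3494 calls, 2515 to 3128 RAS interactions and 2124 to 2509 medium interactions. A replicate block, fitted to the 6 libraries alone, gave 2815 calls against 2860 without it (same-numbered libraries of the 2 groups correlated at 0.0337, -0.0619 and -0.00361, and so were not paired). Blocking the number within each ERF label gave 3088 RAS and 2432 medium interactions, with 95.4% and 97.3% of the unblocked calls among them; same-numbered libraries across the groups of these tests correlated between -0.0855 and 0.197. Without all ERF WT libraries numbered 1 there were 2427 and 2289. With the block Atf3, Nupr1, Myc and Fgf8 had adjusted p of 0.061, 0.051, 0.062 and 0.082. Passing neither 6-library fit, without and with the block, were Fgf5 (0.067 and 0.167), Zeb2 (0.069 and 0.093), Esrp1 (0.072 and 0.053), Id1 (0.052 and 0.080), Cldn9 (0.067 and 0.083) and Gata6. Socs3 failed without the block (0.069), and Slc25a31 with it (0.99 on the log2 scale). Of 175 named genes, 143 stayed on their side of the call in all settings run, 25 of 133 called genes lost it in at least 1 and 7 uncalled genes gained it, none reversing. Medians of 6 of 27 lists moved by more than the replicate spread in some setting: naive, Wnt, mesendoderm, neural, glycolysis and fibroblast. The settings on chromosome 8 and the block within ERF label were chosen after seeing the data. At these depths genes below about 1 CPM rest on few counts.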
